A study of Homo sapiens with 19 samples.

Results

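The 10 genes described here encode the abundant chaperones and disulfide isomerases of the endoplasmic reticulum: HSPA5, HSP90B1, CALR, CANX, PDIA3, PDIA4, PDIA6, P4HB, HYOU1 and SDF2L1. They were taken by symbol, with no measured value in the rule, out of 58051 human genes in the count tables, and all 10 passed the filter on low counts. RNA was sequenced from K562, an established human erythroleukaemia line, with no treatment of the cells. Each of 4 samples of the cells (whole cells, cytoplasm, nuclear wash and nucleus) had 4 libraries depleted of ribosomal RNA, and the nuclear wash was sequenced in 3 further libraries with that depletion left out. All 19 libraries come from this one line, and the labels give neither the detergents used for fractionation nor the origin of the replicates. All p-values therefore rest on library-to-library spread, part or all of which may be technical. In bulk RNA of a fraction, fewer cells recovered and less of an RNA per cell cannot be told apart.

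The endoplasmic reticulum is the membrane system where secreted and membrane proteins are made and folded. Its outer face carries ribosomes and it is continuous with the outer membrane of the nucleus. Messages with a signal sequence are brought to it by the signal recognition particle while they are translated, so the messages of its own lumenal chaperones are themselves translated at its surface. Proteins that enter the lumen meet an Hsp70 chaperone, BiP (HSPA5), then an Hsp90 chaperone, GRP94 (HSP90B1), a lectin cycle that reads N-glycans, and isomerases that make and shuffle disulfide bonds. When unfolded proteins build up, the transcription factors ATF6 and XBP1 raise many of these genes together through the endoplasmic reticulum stress response elements of their promoters.

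Those elements are shown first because 7 of the 9 members with a promoter window hold one. Genes of this kind were already known to carry them, so the matches are a description and not a test. RefSeq promoter windows on GRCh38.p14, from 250 bases before to 50 bases after each gene's start, were found for 9 of the 10 members, and PDIA3 was not matched. Both forms of the element were searched on both strands: element I, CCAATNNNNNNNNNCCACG, and element II, ATTGGNCCACG. Element I was found in the windows of 5 members and of 0.0916% of the 27305 genes with a window, members included (0.0769% of 35116 windows). Element II was found in 2 members and in 0.0696% of genes (0.0541% of windows). Each sequence is printed 5′ to 3′ on the strand of its gene, with the element and its spacer in capitals. A run in capitals that opens with CGTGG is the element read on the other strand.
HSPA5, chr9:125241376-125241424, minus strand: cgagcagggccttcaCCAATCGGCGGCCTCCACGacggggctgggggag
HSP90B1, chr12:103930201-103930249, plus strand: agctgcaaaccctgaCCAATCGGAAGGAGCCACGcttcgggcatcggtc
HSP90B1, chr12:103930306-103930354, plus strand: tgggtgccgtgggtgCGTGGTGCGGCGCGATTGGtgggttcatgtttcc
CALR, chr19:12938369-12938417, plus strand: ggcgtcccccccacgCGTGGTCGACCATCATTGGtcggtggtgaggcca
CANX, chr5:179698763-179698811, plus strand: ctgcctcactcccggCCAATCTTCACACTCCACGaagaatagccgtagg
PDIA6, chr2:10812838-10812886, minus strand: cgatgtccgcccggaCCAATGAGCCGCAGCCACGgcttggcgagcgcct
HYOU1, chr11:119057259-119057299, minus strand: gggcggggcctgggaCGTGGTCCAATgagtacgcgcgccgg
HYOU1, chr11:119057365-119057405, minus strand: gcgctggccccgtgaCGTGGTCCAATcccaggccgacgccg
SDF2L1, chr22:21642099-21642139, plus strand: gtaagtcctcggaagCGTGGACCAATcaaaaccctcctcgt
All 9 matches lie wholly before at least 1 annotated start of their gene, and no match overlaps another. Measured from the start listed first in the table, they fall between 225 and 48 bases upstream. HSP90B1 carries 2 copies of element I in opposite orientation, and HYOU1 carries 2 copies of element II in the same orientation. CANX has 4 windows in the table, and its match lies in 3 of them, wholly before the start in all but 1, where it spans the start. PDIA6 has 2 windows, and its match lies in 1 of them. The matches of HSP90B1, CANX and PDIA6 lie inside the GENCODE 29 gene spans given below, so upstream holds there only for the RefSeq start used. The windows of PDIA4 and P4HB did not hold these letters, which says nothing about either factor at those genes. None of the cells was treated, so these elements are a feature of the genes and not of a response measured here.

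Exon counts numbered 1373755 to 7955415 per depleted library (16 libraries) and 923464 to 1801293 per undepleted library. The cells carried the RNA of their label: all 8 erythroid and K562 markers were detected, with HBG2 at 1626 to 2060 CPM in whole cells (CPM being the exon count scaled by the TMM-adjusted library total). Of 12 markers of other cell types, INS had 0 counts, MS4A1 1, KRT5 2 and ALB 7 over all 16 libraries, and 4 passed the filter (PTPRC, EPCAM, COL1A2 and PECAM1). The summed level of these 12 was 435 to 449 CPM in the wash, 114 to 179 in the cytoplasm, 187 to 228 in the nucleus and 168 to 222 in whole cells. It was thus also highest in the wash, and its part in the results below was not tested. Column names split the replicates into prefix 1 (replicates 1 and 2) and prefix 2 (replicates 3 and 4), whose meaning the labels do not give. The nuclear RNA MALAT1 was higher in the nucleus than in the cytoplasm by 4.24 on the log2 scale and the glycolytic message GAPDH was lower by -3.79.

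The members were most abundant in the nuclear wash. Together they took 1.13% ± 0.0807 (SD, n = 4) of the exon counts in the wash, against 0.339% ± 0.0158 in the cytoplasm, 0.488% ± 0.0178 in the nucleus and 0.444% ± 0.0356 in whole cells. Wash libraries ran from 1.03 to 1.22% and no library of another depleted fraction exceeded 0.512%. In the edgeR quasi-likelihood test over 15940 genes, 9 of the 10 were higher in the wash than in the cytoplasm at an adjusted p under 0.05, where 22.8% of all tested genes were, and 0 were lower, beside 21.4%. The wash libraries lay above all cytoplasmic ones for the same count of 9, which held for 18.8% of tested genes. SDF2L1 was the exception. Their median log2 change was 1.88, beside 0.048 for all tested genes. These directions hold relative to the typical gene of a library. With library sizes set by the yeast spike-ins in place of TMM scaling, which takes the typical gene as unchanged, every member fell below its cytoplasmic level in the wash and the median gene shifted by -3.10.

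**Figure D1:**
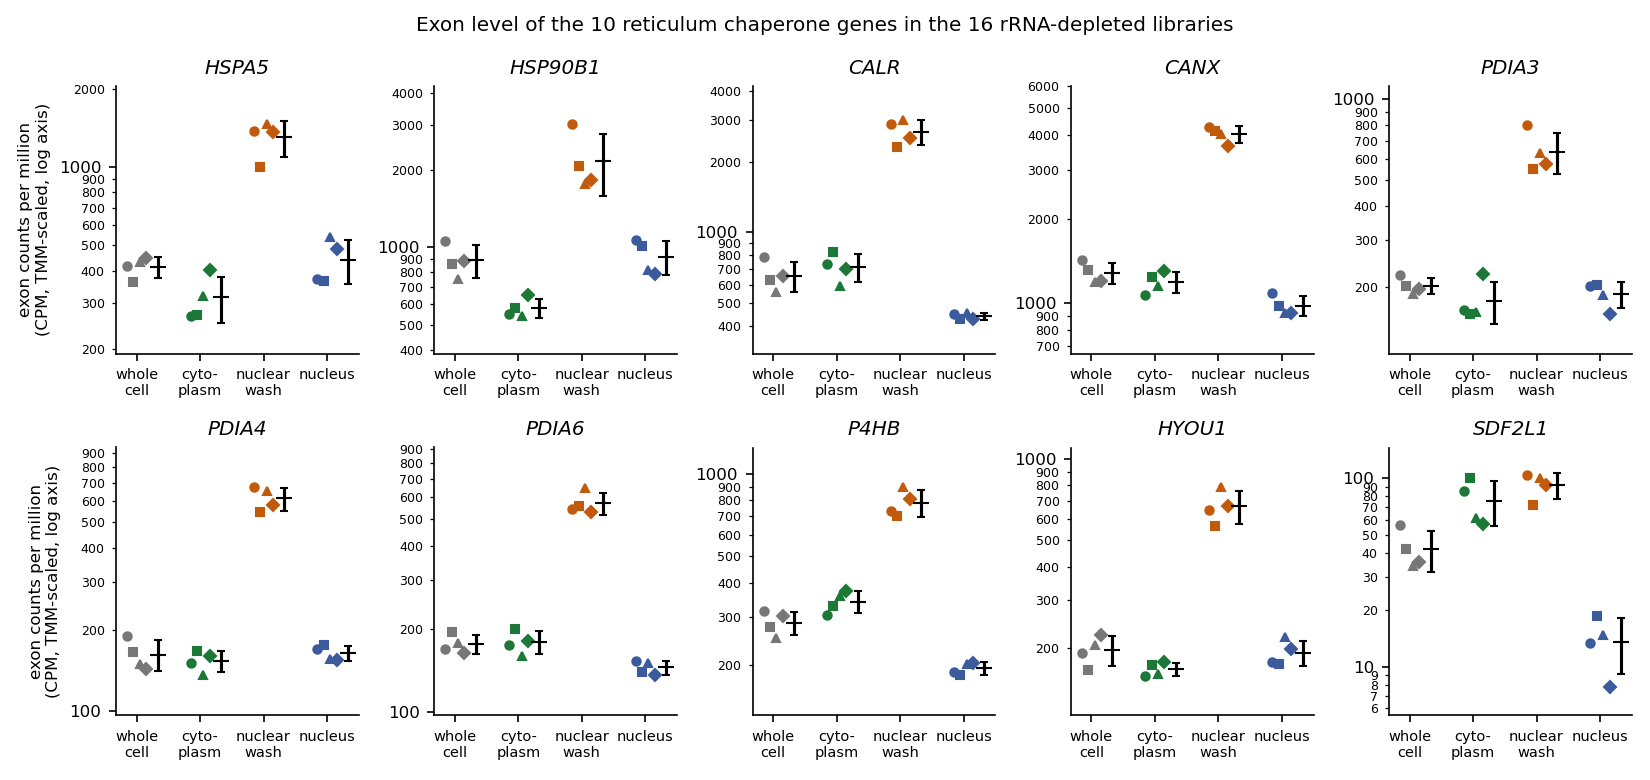
Exon level of each member in CPM (TMM-scaled, log axis, a separate range in each panel) in the 16 depleted libraries. Circles, squares, triangles and diamonds are replicates 1, 2, 3 and 4, and black bars are mean ± SD (n = 4). The 4 wash libraries stand above all others for 9 members, and for SDF2L1 they overlap the cytoplasm. The panels use TMM scaling. Scaled by spike-ins all 10 members lie lower in the wash than in cytoplasm, as does the median gene (-3.10 on the log2 scale).

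Positions of the members are those of GENCODE 29 on hg38, and all 10 are protein-coding genes. BiP, encoded by HSPA5 (ENSG00000044574, chr9:125234853-125241330, minus strand), is the Hsp70 of the lumen and holds nascent chains as they enter. Its exon level was 1379.8, 998, 1469 and 1371 CPM in wash replicates 1 to 4 and 269, 269.7, 319 and 404 in the cytoplasm. Every wash library lay above every cytoplasmic one, by 2.05 (SE 0.163) on the log2 scale (adjusted p = 5.35e-09 in edgeR), a fold of 4.14. The nucleus had 372, 364, 537 and 484 CPM and whole cells 416, 360.4, 433 and 449. Nucleus, whole cell and cytoplasm overlapped their neighbours in that order. The nuclear libraries of prefix 2 lay above those of prefix 1.

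HYOU1 (ENSG00000149428, chr11:119044189-119057202, minus strand) encodes GRP170, a large Hsp70-like protein that serves BiP as a nucleotide exchange factor. It had 648, 563, 790.3 and 674 CPM in the wash and 157, 173, 160.3 and 176 in the cytoplasm. The groups did not overlap and differed by 2.00 (SE 0.128) on the log2 scale (adjusted p = 2.54e-10 in edgeR). Levels in whole cells (196 ± 24.3 CPM) and the nucleus (192 ± 20.4) overlapped each other. HYOU1 lacks element I and holds the pair of element II copies printed above.

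SDF2L1 (ENSG00000128228, chr22:21642261-21644298, plus strand), a small lumenal protein that works with BiP and its J-domain partner ERdj3, was the member without a called difference. Its wash libraries had 104, 71.5, 99.9 and 92.0 CPM and its cytoplasmic libraries 85.4, 99.5, 61.4 and 57.0. The groups overlapped, since both cytoplasmic libraries of prefix 1 exceeded the lowest wash library. The log2 difference of 0.27 (SE 0.194) did not pass the test (adjusted p = 0.268 in edgeR). Within prefix 1 it was -0.11 (adjusted p = 0.678 in edgeR) and within prefix 2 it was 0.69 (adjusted p = 2.30e-04 in edgeR), where both wash libraries lay above both cytoplasmic ones. The nucleus had 13.4, 18.5, 14.6 and 7.74 CPM, from only 30, 54, 54 and 15 exon counts, below every library of the other fractions. Whole cells, at 56.6, 42.1, 34.0 and 35.8 CPM, lay below every cytoplasmic library. SDF2L1 is also the shortest member, with a coding sequence of 663 bases and 1099 bases of exons.

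GRP94, encoded by HSP90B1 (ENSG00000166598, chr12:103930107-103953645, plus strand), is the Hsp90 of the lumen and folds a limited set of clients such as integrins and Toll-like receptors. The wash held 3039, 2074, 1761 and 1824 CPM and the cytoplasm 549.5, 579, 541 and 651. All wash libraries were above all cytoplasmic ones, and wash replicate 1 stood highest. The log2 difference was 1.91 (SE 0.166, adjusted p = 1.71e-08 in edgeR), with 2.18 in prefix 1 and 1.59 in prefix 2. Nuclear levels of 1069, 1011, 819 and 785 CPM overlapped those of whole cells (1063, 861, 755 and 882) and stood above every cytoplasmic library, and GRP94 had the smallest excess of wash over nucleus among the members.

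Calreticulin (CALR, ENSG00000179218, chr19:12938578-12944489, plus strand) and calnexin (CANX, ENSG00000127022, chr5:179678628-179730925, plus strand) are the soluble and the membrane-bound lectin that retain glycoproteins bearing a monoglucosylated N-glycan until they fold. CALR had 2885, 2306, 2993 and 2523 CPM in the wash and 736, 829, 591 and 697 in the cytoplasm, a log2 difference of 1.91 (SE 0.134, adjusted p = 8.87e-10 in edgeR). CANX had 4299.6, 4140.2, 4038 and 3654 CPM in the wash and 1067, 1236, 1149 and 1304 in the cytoplasm, a difference of 1.76 (SE 0.116, adjusted p = 4.13e-10 in edgeR). Neither gene's wash libraries overlapped any other depleted fraction. The nucleus split this pair. CALR was at 452, 428, 455 and 428 CPM there, below all libraries of the other 3 fractions, while CANX at 1087, 978, 921 and 921 overlapped the cytoplasm.

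PDIA3 (ENSG00000167004, chr15:43746392-43773279, plus strand), or ERp57, is the disulfide isomerase that binds both lectins and acts on the glycoproteins they hold. It reached 801, 552, 633 and 572 CPM in the wash against 164, 158, 161 and 224 in the cytoplasm, where replicate 4 stood apart from the other 3. The groups did not overlap and differed by 1.85 (SE 0.142) on the log2 scale (adjusted p = 2.86e-09 in edgeR). Whole cells (202 ± 13.8 CPM) overlapped the nucleus (188 ± 20.5), which overlapped the cytoplasm. PDIA3 has 2 named pseudogenes and overlaps exons of ELL3 on the other strand, so some of its counts may belong to those genes.

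The other isomerases do not depend on the lectins. P4HB (ENSG00000185624, chr17:81843159-81860694, minus strand) is protein disulfide isomerase itself and also the beta subunit of the collagen prolyl hydroxylase. PDIA4 (ENSG00000155660, chr7:149003062-149028641, minus strand) is ERp72, and PDIA6 (ENSG00000143870, chr2:10783391-10837977, minus strand) is an isomerase that associates with BiP. PDIA4 had 673, 546, 649 and 576 CPM in the wash and 150.4, 167, 136 and 159 in the cytoplasm, a log2 difference of 2.00 (SE 0.120, adjusted p = 1.22e-10 in edgeR). PDIA6 had 544, 556, 649 and 532 CPM against 176, 201, 159.8 and 181, a difference of 1.67 (SE 0.111, adjusted p = 4.57e-10 in edgeR). P4HB had 731, 702, 893 and 813 CPM against 303, 328, 359 and 372, a difference of 1.20 (SE 0.114, adjusted p = 5.63e-08 in edgeR). None of the 3 overlapped, and P4HB had the smallest difference of the 9 called members, a fold of 2.30. Exons of P4HB overlap an antisense gene, and exons of PDIA6 overlap ATP6V1C2 on the other strand. The setting for strand in the counting is not given in the sources used here, so these overlaps leave their exact levels uncertain, as do antisense or opposite-strand exons at CALR, CANX, HSP90B1 and HYOU1.

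Per kilobase of exon, a scale on which genes can be compared with each other, calreticulin led in the wash with 986 ± 117 RPKM (mean ± SD, n = 4). CANX followed with 647 ± 44.0, then HSP90B1 with 463 ± 126 and HSPA5 with 334 ± 53.4. The other 6 were lower, from 186 ± 18.3 for PDIA4 down to 83.5 ± 13.0 for SDF2L1. CALR, CANX, HSP90B1 and HSPA5 also held the first 4 places in the cytoplasm and in whole cells. In the nucleus HSP90B1 came first with 196 ± 29.9, ahead of CALR with 162 ± 5.40. SDF2L1 ranked 5 of 10 in the cytoplasm with 69.0 ± 18.3 and 10 of 10 in the nucleus with 12.3 ± 4.03.

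Against the nucleus, all 10 members were higher in the wash (edgeR, adjusted p under 0.05), where 36.7% of tested genes were higher. No wash library overlapped a nuclear library for any member, which held for 31.7% of tested genes in that direction. The differences ran from 1.24 (SE 0.163) on the log2 scale for HSP90B1 through 1.57 (SE 0.161) for HSPA5 to 2.60 (SE 0.138) for CALR and 2.72 (SE 0.233) for SDF2L1. SDF2L1, the one member without a called difference from the cytoplasm, thus had the largest difference from the nucleus. Whole cells gave the same direction: all 10 were higher in the wash, beside 14.6% of tested genes, without overlap of libraries (12.9% of tested genes), from 1.14 for SDF2L1 to 2.03 for CALR. These comparisons share the wash libraries and are not independent. With spike-in library sizes, 8 members were lower in wash than in nucleus and all 10 lower than in whole cells, where the median gene shifted by -2.47 and -4.51.

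Between nucleus and cytoplasm the members went separate ways. HSPA5 (0.48, SE 0.159 on the log2 scale, adjusted p = 0.00959 in edgeR) and HSP90B1 (0.67, SE 0.162, adjusted p = 8.07e-04) were higher in the nucleus, where 39.3% of tested genes were higher. CALR (-0.69), CANX (-0.28), PDIA6 (-0.30), P4HB (-0.81) and SDF2L1 (-2.45) were lower, as were 37.5% of tested genes. For PDIA3 (0.088), PDIA4 (0.10) and HYOU1 (0.20) the difference did not pass the test. Libraries did not overlap for 5 members: HSP90B1 was higher and CALR, PDIA6, P4HB and SDF2L1 lower, beside 36.3 and 35.2% of tested genes in those directions. The calls nearest the threshold depended on single libraries. HSPA5 lost its call without cytoplasm replicate 2 (0.37, adjusted p = 0.0553 in edgeR). CANX lost it without nucleus replicates 2, 3 or 4 (-0.26, -0.23 and -0.23) and PDIA6 without nucleus replicates 2 or 4 (-0.26 and -0.25). With RLE factors, DESeq2 or a fit of these fractions alone, CANX and PDIA6 also lost their calls, while HYOU1 passed as higher in the nucleus (0.34, 0.34 and 0.30).

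The direction of 5 members (HSPA5, HSP90B1, PDIA3, PDIA4 and HYOU1) changed with what was counted. Counted over whole gene bodies, introns included, all 10 members were lower in the nucleus than in the cytoplasm. Among them were HSPA5 with -0.96 and HSP90B1 with -0.67, beside a median gene at 0.030. With spike-in library sizes HSPA5 changed sign to -0.12 and HSP90B1 did not, and 8 members were lower and 0 higher. The median gene was at -0.60 with that scaling. Counted without a composition factor, CANX and PDIA6 turned to 0.32 and 0.30, and 7 members were higher. The median gene was then at 0.63, so CANX and PDIA6 still lay below it. The shares of all tested genes called higher or lower in these settings were not computed. SDF2L1, CALR and P4HB stayed below 0 in all of these settings, although CALR (-0.090) and P4HB (-0.20) did not pass the test without a composition factor.

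**Figure D2:**
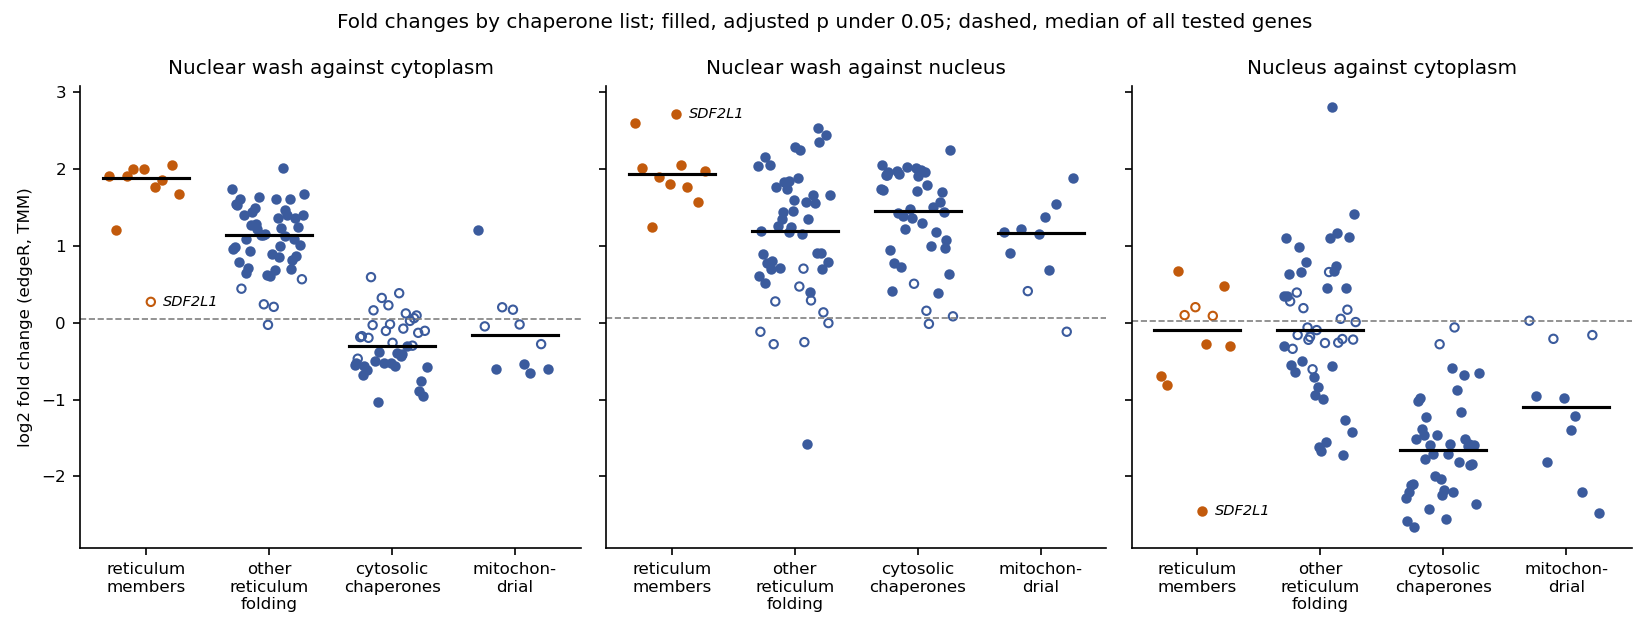
Log2 fold change (edgeR, TMM scaling) of the 10 members (orange) and of 3 lists of other chaperones (blue) in 3 comparisons of fractions; each point is a gene, filled at an adjusted p under 0.05, and black bars are list medians. In wash against cytoplasm the members sit at 1.20 to 2.05 except SDF2L1 at 0.27, while the cytosolic list has its median at -0.30. With spike-in library sizes all 10 members fall below 0 in that comparison, as does the median gene (-3.10).

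The members can be placed beside the rest of the folding machinery from lists of textbook genes. Of 50 other genes of reticulum folding, such as co-chaperones, oxidases, glucosidases and calcium-binding proteins, 49 were tested in wash against cytoplasm. Of these, 44 were higher and 0 lower, with a median log2 change of 1.14 beside 0.048 over all tested genes. OS9, a lectin that delivers misfolded glycoproteins to degradation, had the largest change (2.02, SE 0.157, adjusted p = 3.92e-09 in edgeR). CALU, a calcium-binding protein of the secretory pathway, differed by 1.73 (SE 0.121), and HSPA13, a microsomal Hsp70-like protein, by 1.68 (SE 0.326). The 5 not called were SELENOF, EDEM2, TXNDC5, FKBP7 and EDEM1, named here after their values were seen. Of 40 chaperones of the cytosol, 0 were higher and 19 were lower, with a median of -0.30. Of 10 mitochondrial chaperones, CLPB alone was higher (1.20) and 4 were lower, with a median of -0.16.

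In wash against nucleus, 39 of 49 other reticulum genes, 36 of 40 cytosolic and 8 of 10 mitochondrial chaperones were higher, with medians of 1.20, 1.46 and 1.16 beside the members' 1.94. In nucleus against cytoplasm, 16 of the other reticulum genes were higher and 15 lower (median -0.096), beside 2 and 5 of the members (median -0.098). Of the cytosolic chaperones 38 of 40 were lower (median -1.65), and of the mitochondrial ones 7 of 10 (median -1.10). With spike-in library sizes, all 49 other reticulum genes, all 40 cytosolic and all 10 mitochondrial chaperones were lower in wash than in cytoplasm. The median gene was then at -3.10 and 14869 of the 15940 tested genes differed in either direction, so these counts are not particular to chaperones.

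A ratio of 2 genes inside a library does not depend on how libraries are scaled. HSPA5, HSP90B1 and HYOU1 have close relatives in other compartments, and 7 such pairs were compared. BiP's relative in mitochondria is mortalin (HSPA9). The ratio of HSPA5 to HSPA9 exon counts was 1.32 to 1.62 in the wash, 0.353 to 0.418 in the cytoplasm and 1.06 to 1.12 in the nucleus. Its log2 value was 1.87 higher in the wash than in the cytoplasm and 0.42 higher than in the nucleus, and in both cases no library overlapped (2-sided exact permutation p = 0.0286, the smallest that 4 against 4 can give; 0.0375 after adjustment over 21 tests). These are ratios of counts, so only their change between fractions can be read. The permutation tests of all 7 pairs leave out any pairing by replicate number. A paired exact test cannot go below 0.125 with 4 pairs, so no ratio could pass it.

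BiP's cytosolic relative is HSC70 (HSPA8), the constitutive Hsp70. HSPA5 to HSPA8 was 0.355 to 1.13 in the wash and 0.0935 to 0.201 in the cytoplasm, a log2 difference of 2.34 (exact permutation p = 0.0286, adjusted 0.0375). The libraries did not overlap, but both groups split by prefix: the wash had 0.355 to 0.449 in prefix 1 and 1.05 to 1.13 in prefix 2, and the cytoplasm 0.0935 to 0.0985 and 0.156 to 0.201. The nucleus split further, into 0.427 to 0.447 and 1.75 to 1.91. HSPA8 itself had 277 to 853 CPM in the nucleus and 2007 to 2874 in the cytoplasm.

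GRP94 was compared with the cytosolic Hsp90 pair and with TRAP1, the Hsp90 of mitochondria. HSP90B1 to HSP90AB1 was 0.473 to 0.588 in the wash, 0.149 to 0.187 in the cytoplasm and 0.754 to 0.959 in the nucleus. It was the one ratio of the 7 whose wash libraries all lay below the nuclear ones, with a difference of -0.78 on the log2 scale (exact permutation p = 0.0286, adjusted 0.0375). HSP90B1 to HSP90AA1 differed by 1.96 between wash and cytoplasm and HSP90B1 to TRAP1 by 1.91 (exact permutation p = 0.0286 and adjusted 0.0375 for each). Neither passed between wash and nucleus (exact permutation p = 0.571 for each).

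HYOU1 has 2 cytosolic Hsp110 relatives. HYOU1 to HSPH1 was 2.16 to 6.87 in the wash and 0.820 to 1.17 in the cytoplasm, and HYOU1 to HSPA4 was 1.09 to 2.29 and 0.378 to 0.445. Both differed between these fractions without overlap, by 1.97 and 1.93 on the log2 scale (exact permutation p = 0.0286 and adjusted 0.0375 for each). The HSPH1 ratio again split by prefix in the wash, at 2.16 to 2.62 and 5.81 to 6.87. All 7 ratios were higher in wash than in cytoplasm and all 7 were higher in nucleus than in cytoplasm, every library included. In the nucleus the relatives themselves had lower mean levels than in the cytoplasm, such as HSP90AB1 (1040 against 3386 CPM) and HSPA4 (130 against 396). HYOU1 itself did not pass between these fractions (0.20 on the log2 scale, TMM). A higher nuclear ratio is thus not by itself a higher nuclear level of the member. With gene-body counts the HYOU1 to HSPH1 ratio no longer passed between nucleus and cytoplasm (0.54).

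**Figure D3:**
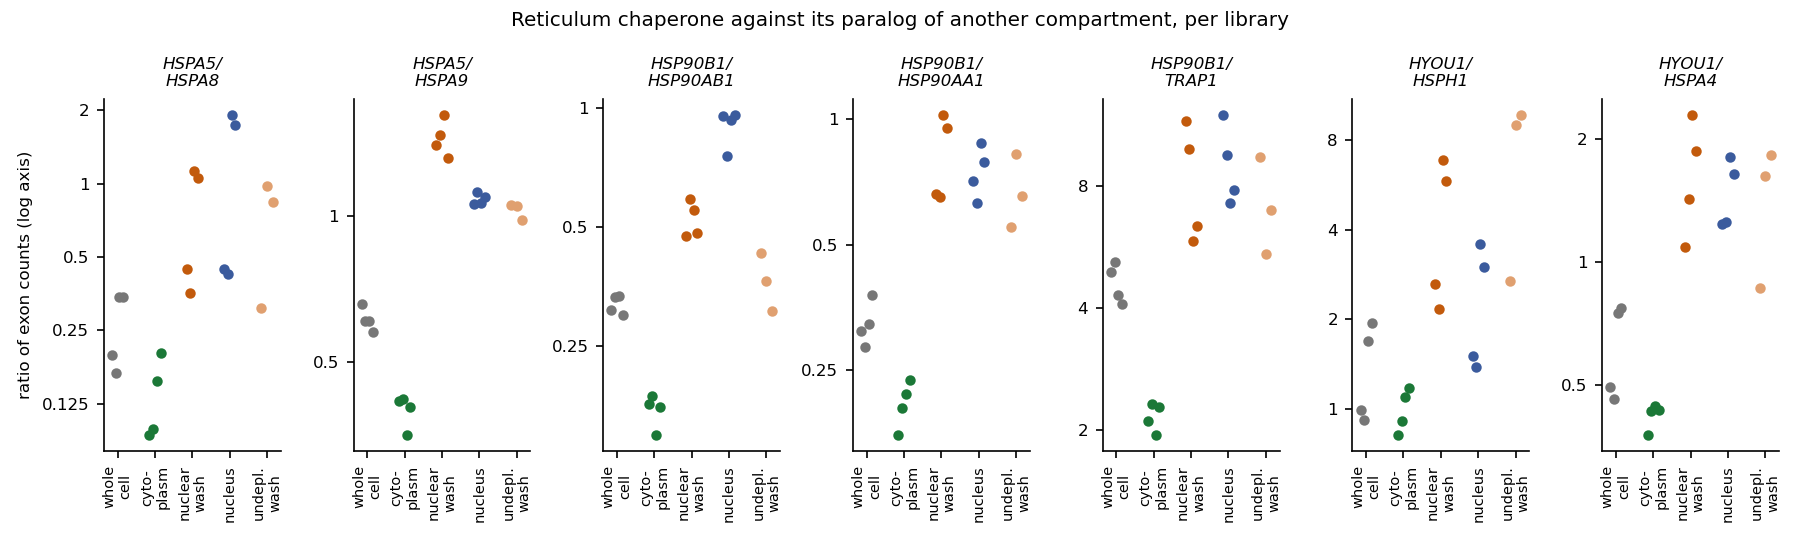
Ratio of exon counts (log axis, a separate range in each panel) of a reticulum chaperone to its relative of the cytosol or mitochondria, one point per library, with the fractions along the bottom and the 3 undepleted wash libraries at the right. In every panel the 4 cytoplasmic libraries lie below the 4 wash and the 4 nuclear libraries. HSPA5 to HSPA8 ranges from 0.355 to 1.13 within the wash.

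Reads in introns come from unspliced or intron-retaining RNA. Summed over all genes, introns held 12.7% ± 1.30 (SD, n = 4) of the exon plus intron counts in the cytoplasm. They held 21.2% ± 3.65 in the wash and 70.3% ± 2.03 in the nucleus. Intron counts were taken as gene-body minus exon counts. Their share of the gene-body counts was highest in the nucleus for all 10 members, with no library of another depleted fraction reaching it. The share of all genes with such a separation was not computed. By the model described below, 87.9% of tested genes had a higher intron to exon ratio in nucleus than in cytoplasm, so this direction is not particular to the members. The spread between members was wide. In the nucleus PDIA3 had 35.1% ± 3.62 (SD, n = 4) and PDIA6 34.1% ± 5.82, whereas CALR had 3.85% ± 1.27, HSPA5 3.99% ± 0.754 and HYOU1 3.16% ± 0.769. Apart from SDF2L1, the members with the low shares have the shortest introns in total, 2570 bases in HSPA5, 3198 in CALR and 5320 in HYOU1, against 50486 in PDIA6 and 22648 in PDIA3. SDF2L1, with 939 bases of introns, had 16.6% ± 3.39 from 3 to 10 intron counts a library.

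Across most genes the wash held more intronic RNA per exonic RNA than the cytoplasm, and 6 of the 8 members tested held less. In an edgeR model of the intron to exon ratio, which carries a term for each library and so needs no scaling, 69.3% of 10461 genes had a higher ratio in the wash than in the cytoplasm and 2.28% a lower one. The median log2 change was 1.27. Of the 8 members with enough intron counts to be tested, 6 had a lower ratio in the wash and 0 a higher one. Exon counts are the denominator of this ratio, and all 8 were higher in the wash by TMM-scaled exon counts. The lower ratio is therefore not independent of that difference and does not show a fall in intronic RNA. HYOU1 and SDF2L1, with at most 3 intron counts in any cytoplasmic library, were not tested.

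CALR had 0.0887, 0.134, 0.0652 and 0.0564% of its gene-body counts in introns in the wash and 0.347, 0.206, 0.173 and 0.200% in the cytoplasm. No library overlapped, and the log2 ratio changed by -1.41 (SE 0.413, adjusted p = 0.00354 in edgeR). HSPA5 had 0.106, 0.263, 0.361 and 0.252% against 0.729, 0.630, 0.637 and 0.460%, a change of -1.22 (SE 0.343, adjusted p = 0.00249 in edgeR), also without overlap. Both rest on few reads, 7 to 20 intron counts a wash library for CALR and 4 to 30 for HSPA5. Cytoplasmic libraries had 7 to 13 for CALR and 10 to 14 for HSPA5, before any scaling.

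PDIA3 offers more counts, 61 to 159 a wash library. Its share was 2.71, 4.27, 2.44 and 2.23% in the wash and 7.47, 9.15, 4.43 and 3.41% in the cytoplasm. These overlapped across prefixes and were lower in the wash in all 4 replicate numbers, with a change of -1.07 (SE 0.281, adjusted p = 0.00141 in edgeR). HSP90B1 changed by -1.04 (SE 0.287, adjusted p = 0.00218), PDIA4 by -0.92 (SE 0.240, adjusted p = 0.00141) and CANX by -0.64 (SE 0.230, adjusted p = 0.0148), all by edgeR. PDIA6 (-0.54, SE 0.278, adjusted p = 0.083 in edgeR) and P4HB (-0.46, SE 0.276, adjusted p = 0.142) did not pass. Between 1.09% (CALR) and 5.06% (P4HB) of the tested genes had a lower value than these 8. Single libraries moved the calls near the threshold. CANX lost its call without cytoplasm replicate 1 (-0.50), cytoplasm replicate 2 (-0.53) or wash replicate 4 (-0.53). PDIA6 gained one without wash replicate 1 (-0.67) or cytoplasm replicate 3 (-0.75), and P4HB without wash replicate 2 (-0.66). Within prefix 1 the same count of 6 was lower and within prefix 2 it was 5, with HSPA5 (-0.82, adjusted p = 0.0758 in edgeR) and CANX (-0.49, 0.0837) no longer called and P4HB (-0.70, 0.0471) called.

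**Figure D4:**
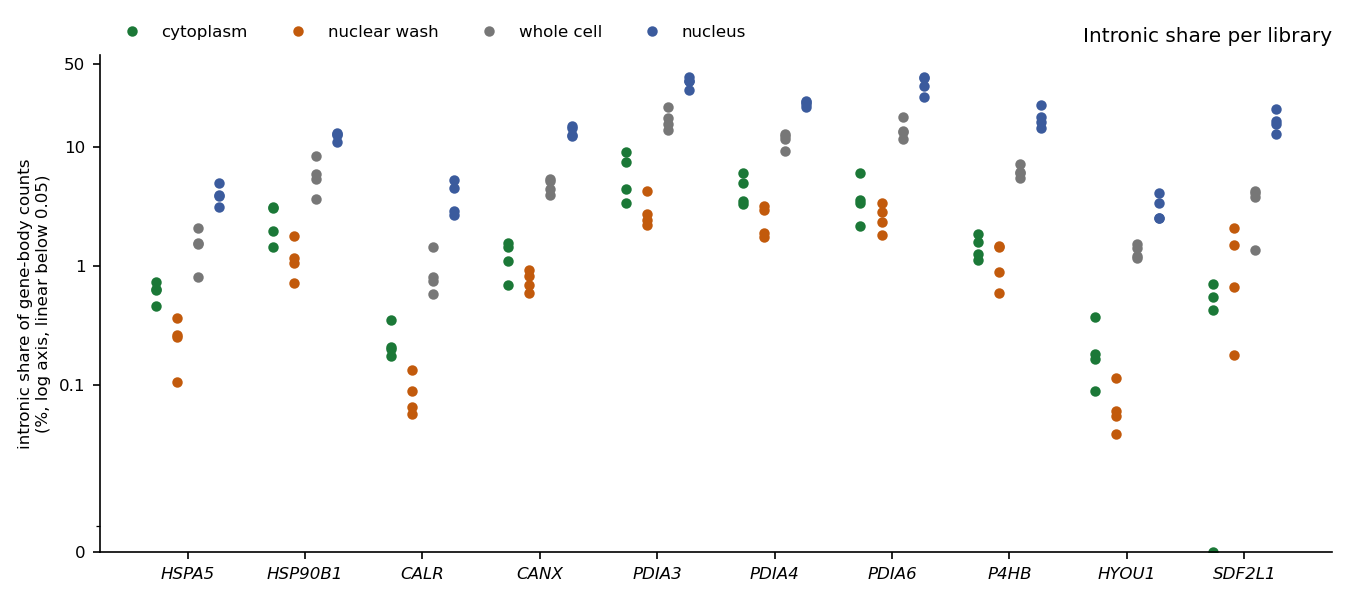
Share of gene-body counts that fell outside exons, in percent on a log axis that is linear below 0.05, one point per depleted library, for each member. The nucleus is highest for all 10 members, and for HSPA5, CALR and PDIA4 every wash library lies below every cytoplasmic one. The shares of all genes for which these separations hold were not computed.

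**Figure D5:**
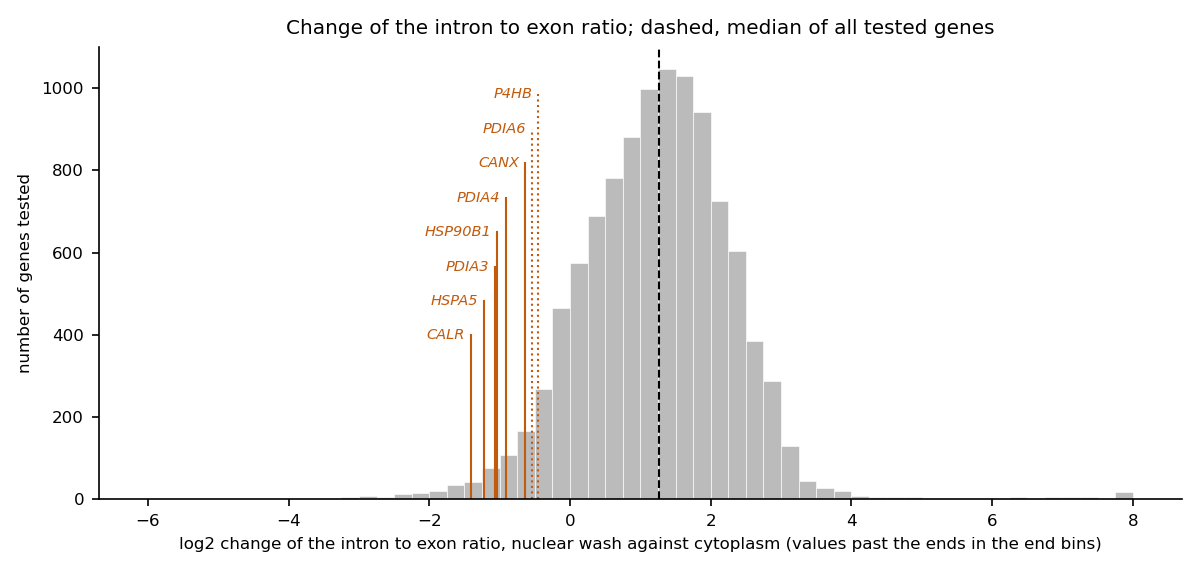
Histogram of the log2 change of the intron to exon ratio in nuclear wash against cytoplasm over 10461 tested genes, with the 8 tested members as lines (solid, adjusted p under 0.05; dotted, not). The dashed line marks the median gene at 1.27, and the members lie between -1.41 and -0.46.

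Unlike the members, all 3 lists had a median above 0. Of the other reticulum folding genes, 19 of 44 had a higher ratio in the wash than in the cytoplasm and 3 a lower one (median 0.45). Of the cytosolic chaperones, 28 of 36 were higher and 0 lower (median 1.36), and of the mitochondrial ones 7 of 9 were higher (median 1.11). Against the nucleus all 8 tested members had a lower ratio in the wash, as did 84.2% of tested genes, with changes from -3.62 (SE 0.279) for HSP90B1 to -5.51 (SE 0.328) for CALR. Nucleus against cytoplasm was higher for all 8, as for 87.9% of tested genes, with changes from 2.58 for HSP90B1 to 4.10 for CALR beside a median gene of 3.81. Here the members lay among the other genes, with 27.8% (HSP90B1) to 57.2% (CALR) of tested genes below them.

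Whether leaving out the depletion of ribosomal RNA moved a member past the threshold depended on whether the pairing of libraries was modelled. Fitted by group alone, the 7 wash libraries gave 0 of the 10 as different between undepleted and depleted wash (edgeR). Of 11627 tested genes, 11.1% differed in either direction. HSP90B1 was the 1 member at an unadjusted p under 0.05 (0.51, SE 0.220, adjusted p = 0.153 in edgeR). On the scale of this fit it had 2539, 1857 and 2327 CPM in the undepleted and 2241, 1486, 1240.3 and 1314 in the depleted wash, so the groups overlapped. CANX, at a log2 difference of -0.22, was the one member whose libraries did not overlap, all lower in the undepleted wash, beside 13% of tested genes. The undepleted libraries carry the column prefixes of wash replicates 2, 3 and 4. With that prefix as a block, HSP90B1 (0.73, adjusted p = 3.56e-08 in edgeR) and PDIA4 (0.38, adjusted p = 0.00158) were higher and P4HB (-0.30, adjusted p = 0.0124) lower in the undepleted wash. Of the 11627 tested genes, 3781 differed with the block, so members were not called more often than tested genes as a whole. Wash replicate 1 is the only one of the 7 libraries with its column prefix, so the block gives it no part in the difference. Fitted by group alone without wash replicate 1, HSP90B1 passed too (0.73, adjusted p = 0.0189 in edgeR). Both results rest on the same remaining libraries and are not separate support. Calls over all genes rose from 1290 to 3781 with the block, and fell to 768 and 799 without wash replicates 2 and 3 and to 467 and 458 without undepleted replicates 2 and 3. DESeq2, also fitted by group alone, called 0 members.

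Spike-in scaling changed the sign of the members against the cytoplasm. It shifts every gene of a comparison by nearly the same amount, so a member's distance from the median gene is kept by construction and does not bear on which scaling is right. Relative to the median gene, the 9 members other than SDF2L1 were 1.16 to 2.00 higher in the wash than in the cytoplasm on the log2 scale under TMM, and 1.13 to 1.97 higher with spike-in library sizes. SDF2L1 was 0.22 and 0.16 higher on the same scales. In nucleus against cytoplasm the members ran from -2.47 to 0.64 around the median gene under TMM, and from -2.52 to 0.63 with spike-ins. The labels do not tie the spike-in to a number of cells, so these values are not amounts of RNA per cell.

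Over the 16 depleted libraries the members varied together to different degrees. The correlation of each member's log2 CPM with the mean of the other 9, a description across libraries that share 4 fractions, was highest for CANX (r = 0.992), CALR (0.987) and PDIA6 (0.987). It was lower for HSPA5 (0.887), HSP90B1 (0.829) and SDF2L1 (0.581). Among 6888 other genes whose mean reached 20 CPM, the 8 most like the mean of the members included RPN2 (r = 0.990), SERPINH1 (0.989), CALU (0.988), SPN (0.984), LAMP1 (0.980), ERLIN2 (0.980) and SLC2A1 (0.979). RPN2 is a subunit of the oligosaccharyltransferase, SERPINH1 is the collagen chaperone of the lumen, SPN and SLC2A1 are proteins of the cell surface, and LAMP1 is lysosomal. With spike-in library sizes 5 of these 8 remained among the first 8, and with gene-body counts 2 did.

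Length went with the size of the change. Among the 10 members the log2 change of wash against cytoplasm rose with the length of the coding sequence (Spearman rho = 0.67, n = 10 genes), from SDF2L1 with 663 bases to HYOU1 with 2997. The same description gave 0.63 over the 40 cytosolic chaperones, 0.30 over 49 other reticulum genes and 0.36 over 11310 tested protein-coding genes. Exon length gave 0.067 among the members. These are ranks across genes, which are not independent replicates.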

How the data were processed

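RNA of 19 K562 libraries in 5 groups was deposited as raw counts per gene, once over exons and once over gene bodies. The authors used cutadapt 2.5, STAR 2.7.0a and featureCounts 1.6.2 on hg38, per the submitters' processing notes, and neither the strand setting nor the annotation release is given in the sources used here. Identifiers of 57447 of 58051 genes were found in GENCODE 29, from which names, positions and lengths were taken. Counts of 16 depleted libraries were fitted together, and 7 wash libraries separately, with edgeR 4.0.16 in R 4.3.3 (limma 3.58.1) by the quasi-likelihood test, TMM factors, filterByExpr and Benjamini-Hochberg adjustment at 0.05, and DESeq2 1.42.0 was an alternative. The share in introns was gene-body minus exon counts over gene-body counts, which was negative for no member (for 6055 genes in at least 1 library, set to 0). The share summed over all genes was taken over exon plus intron counts. Ratios of paralogs had 0.5 added to each count and 2-sided exact permutation tests. The 11 yeast spike-in transcripts served an alternative scaling and were otherwise left out. Columns with the same replicate label deviated together from their group means (correlations of 0.177 to 0.619 over 16 pairs, and 0.345 to 0.644 over 3 pairs of undepleted and depleted wash matched by column prefix). All pairs were above 0.1, although only 7 of the 16 had the own number as best match. Replicates also share prefixes, so the 16 correlations do not show that the numbers pair the libraries. A replicate block was therefore used as an alternative only. Replicates differed beyond counting noise (chi-square per degree of freedom of 1.19 to 28.0 over 27 pairs). Scripts were tested on simulated data, where the intron to exon model recovered fewer of the known changes than first required. That criterion was then dropped, and a ratio that did not pass is not shown to be unchanged. Named genes are the 10 members, the 3 genes of the wider reticulum list with the largest called change among those with a mean of at least 10 CPM, the 8 genes most like the members, and the list genes that a count singles out. The rule for the members uses symbols only, but the members, lists and tests were chosen with earlier results of these data known. One gene that the rule on most alike genes selects is not reported here.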

Additional observations from a re-analysis of the deposited data

Results flagged for a closer look

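Of 108 groups of 4 libraries examined, 3 had a library that stood apart from the others by Dixon's test at the 95% level, where chance gives about 1 in 20. Cytoplasm replicate 4 had 224 CPM of PDIA3, where the nearest other cytoplasmic library had 164. Whole-cell replicate 3 had an intronic share of 1.36% for SDF2L1, where the nearest other library had 3.82%. Nucleus replicate 2 had a ratio of HSP90B1 to HSP90AB1 of 0.754, where the nearest other nuclear library had 0.933.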

How the results depend on the processing

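Against the cytoplasm, 9 members were higher and 0 lower in the wash under all alternatives run except prefix 2 alone (10 higher, with SDF2L1) and spike-in library sizes. With spike-in library sizes 0 were higher and 10 lower, at -1.13 for HSPA5, -1.23 for HSP90B1, -1.28 for CALR, -1.39 for CANX, -1.30 for PDIA3, -1.18 for PDIA4, -1.51 for PDIA6, -1.97 for P4HB, -1.19 for HYOU1 and -2.94 for SDF2L1. All genes called were then 14869, OS9 was at -1.18, CALU at -1.46 and HSPA13 at -1.52. The other reticulum list had 0 higher and 49 lower, the cytosolic list 40 lower, and the mitochondrial list 0 higher and 10 lower. In wash against nucleus, spike-ins gave 0 members higher and 8 lower, with -1.01 for HSPA5, -1.26 for HSP90B1, -0.48 for CANX, -0.76 for PDIA3, -0.64 for PDIA4, -0.57 for PDIA6, -0.54 for P4HB and -0.77 for HYOU1. In wash against whole cells, spike-ins gave 0 members higher, 10 lower and 15940 genes called, with -2.79 for HSPA5, -3.09 for HSP90B1, -2.38 for CALR, -2.74 for CANX, -2.74 for PDIA3, -2.49 for PDIA4, -2.72 for PDIA6, -2.97 for P4HB, -2.67 for HYOU1 and -3.28 for SDF2L1. In nucleus against cytoplasm spike-ins put the median gene at -0.60. They gave 0 members higher and 8 lower, and 6 other reticulum genes higher and 29 lower. They also gave -0.12 for HSPA5, -0.54 for PDIA3, -0.54 for PDIA4 and -0.42 for HYOU1. In undepleted against depleted wash they gave 471 genes called, -0.21 for CALR, -0.10 for PDIA3 and -0.051 for HYOU1. Among the 8 genes most like the members, 5 stayed with spike-ins and 2 with gene-body counts. In nucleus against cytoplasm the median gene was at 0.030 with gene-body counts, and 1 cytosolic and 1 mitochondrial chaperone were higher. Gene-body counts gave 0 members higher and 10 lower there. They gave -0.96 for HSPA5, -0.67 for HSP90B1, -0.87 for PDIA3, -1.08 for PDIA4 and -1.24 for HYOU1. They also gave -0.071 for SDF2L1 in wash against cytoplasm, 0.12 for HSPA5 and 0.076 for PDIA6 in undepleted wash. The gene-body ratios in wash against nucleus were -0.020 for HSP90B1 to HSP90AA1, 1.33 for HSP90B1 to TRAP1 and 1.24 for HYOU1 to HSPA4, and in nucleus against cytoplasm 0.54 for HYOU1 to HSPH1. Without a composition factor, the median gene of nucleus against cytoplasm was at 0.63. That comparison had 7 members higher and 1 lower, 29 and 7 other reticulum genes, and 1 cytosolic and 1 mitochondrial chaperone higher. CANX was at 0.32 and PDIA6 at 0.30. Undepleted wash without that factor had 6 members lower, 3971 genes called and the median gene at -0.55. Values there were -0.49 for CALR, -0.37 for PDIA3, -0.18 for PDIA4 and -0.34 for HYOU1. Without a filter on low counts, PDIA3 was at -0.064 and PDIA4 at -0.055 in nucleus against cytoplasm, CALR at -0.10 and PDIA3 at -0.017 in undepleted wash with 1987 genes called, and 3 cytosolic chaperones were higher in wash than cytoplasm. RLE factors, DESeq2 and a fit of only the groups compared each left 3 members lower in nucleus against cytoplasm, and HYOU1 passed as higher under each. With the replicate block, 2 cytosolic chaperones were higher in wash than cytoplasm, and undepleted wash had 2 members higher, 1 lower, 3781 genes called and HSPA5 at 0.029. The block changed no other call of a member, and the exact paired permutation test of the ratios cannot go below 0.125 with 4 pairs. Within prefix 1, SDF2L1 was at -0.11 in wash against cytoplasm, 4 cytosolic chaperones were higher, and 3484 genes were called against whole cells. The prefix 1 ratios were 2.22 for HSP90B1 to HSP90AB1 in nucleus against cytoplasm, 2.28 for HSP90B1 to TRAP1 in wash against cytoplasm, and -0.029 for HSP90B1 to HSP90AA1 and -0.0026 for HYOU1 to HSPA4 in wash against nucleus. Within prefix 2, PDIA3 was at -0.14 in nucleus against cytoplasm, 2 cytosolic chaperones were higher in wash than cytoplasm, and the first 2 of these ratios were 2.55 and 1.54. With each library left out in turn, members in nucleus against cytoplasm numbered 1 to 2 higher and 3 to 5 lower, those in undepleted wash 0 to 1 higher, and all genes called there 458 to 1492. HSPA5 ranged over -0.13 to 0.061, CALR over -0.073 to 0.12 and PDIA6 over -0.086 to 0.0061 in undepleted wash, and in wash against nucleus HSP90B1 to HSP90AA1 ranged over -0.0046 to 0.21, HSP90B1 to TRAP1 over -0.32 to 0.0027 and HYOU1 to HSPA4 over -0.041 to 0.32. The cause of these changes was not tested. The ratio tests with a library left out cannot pass the threshold, and depth limits the intron shares of HSPA5, CALR, HYOU1 and SDF2L1 most.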
